A study of Mus musculus with 4 samples.

Results

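The genes described here are 43 genes of DNA repair, chosen as named members of homologous recombination, the Fanconi anaemia pathway, end joining, mismatch repair, excision repair and direct reversal together with the kinases that signal DNA damage. Of the 43, 42 were measured among 18194 genes on the arrays, and Xrcc2 had no probe set with that symbol alone. The 4 Affymetrix arrays read RNA of mouse bone marrow cells sorted as Lin-c-Kit+Sca-1+, a gate that holds blood stem cells together with multipotent progenitors. There were 2 arrays labelled WT and 2 labelled Alox15-/-, named for loss of the arachidonate 15-lipoxygenase gene and called knockout-labelled here. All mice were C57BL/6 (B6) aged 8 weeks, and no treatment is stated. The sources used here do not say which part of Alox15 was deleted or whether animals were pooled. The replicates are labelled biological, and the p-values rest on the spread between these 4 samples alone, part of which may be technical. Values are log2 signals from robust multi-array averaging (RMA), a method that corrects background, brings the arrays to one distribution and combines the probes of a set. Each difference is the knockout-labelled mean minus the WT mean.

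The targeted gene went against the labels. The only probe set of Alox15 read 4.63 and 4.35 in WT but 10.68 and 10.75 in the knockout-labelled arrays, so its signal was far higher where the label says the gene is lost. The difference was 6.22 ± 0.15 (SE, n = 2 each, limma adjusted p = 0.00133), and without any 1 array the limma adjusted p lay between 0.172 and 0.328. The sources used here do not say whether this probe set lies in the deleted part, and exchanged labels were not tested. Every direction in the text is that of the arrays as labelled and would turn if the labels were exchanged. Of 12 stem and progenitor genes of the gate, 10 were measured, and all 10 lay above the bacterial control probe sets, whose highest value was 4.95 to 5.17, on every array. Kit read 10.23 to 10.63 and Cd34 11.50 to 11.62. The summed linear signal of this list was 17792 to 18391 in WT against 16381 to 16665 in the knockout-labelled arrays. Its genes did not move in one direction, with 4 above 0, 6 below and a median difference of -0.07. The transcription factor gene Hlf, one of the brightest of them, was at -0.77 (limma unadjusted p = 0.00135) and Meis1 at -0.51. Cd48 was at 0.43 and Slamf1 at 0.32, and 0 of the 10 passed the adjusted threshold. Of 8 measured lineage markers that the gate removes, Cd3e, Ms4a1 and Cd5 were below that control on every array, and the other five, Cd4, Cd8a, Cd79a, Itgam and Il7r, were above it on every array, with Il7r the brightest at 8.52 to 8.79. In bulk RNA, fewer cells of a type and less RNA per cell cannot be told apart.

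DNA repair is divided by lesion. Homologous recombination copies an intact sister chromatid to mend a double-strand break and so works mainly in S and G2 phase, whereas end joining ligates broken ends in any phase. The Fanconi pathway unhooks crosslinks between DNA strands and passes the resulting breaks to homologous recombination, excision repair removes damaged bases or short damaged stretches, and mismatch repair corrects replication errors. In blood stem cells these pathways are known for their inherited defects, since loss of Fanconi genes causes bone marrow failure and loss of end joining genes limits stem cell reserve and lymphocyte development.

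None of the 42 genes passed the threshold of 0.05 after Benjamini-Hochberg adjustment over all genes in limma, against 0.00550% of all genes, where the 1 gene that passed was Alox15. At an unadjusted limma p under 0.05 there were 4 of 42, against 7.77% of all genes. These were Mgmt, Fancc and Xrcc4 with higher values in the knockout-labelled arrays (4.20% of all genes were on that side) and Atr with lower ones (3.57%). At the brightest probe set of each gene, no member was among the 181 genes with the largest absolute moderated t, the top 1 percent. In a fit over all 34958 named probe sets, 1424630_a_at of Brca1 ranked 67 and 1442092_at of Fancd2 ranked 265 by that measure. Differences ran from -0.50 for Atr to 0.71 for Mgmt, and 18 of the 42 were smaller than their own SE. In simulated data with 2 arrays per group, 0 of 50 genes changed by 0.5 and 6 of 50 changed by 1 passed the adjusted threshold. A count of 0 therefore cannot tell differences this small from none.

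Small as they were, the differences lay mostly on one side. They were above 0 for 32 of 42 genes (76.2%) against 53.8% of all genes, and below 0 for 10 against 46.2%, with a median of 0.16 against 0.02 for all genes. The groups did not overlap for 22 members (52.4%), against 38.5% of all genes, with the knockout-labelled arrays higher for 17 and lower for 5, against 21.4% and 17.1% of all genes. Without Alox15-/- replicate 2 the median was 0.08, and without any 1 of the other arrays it lay between 0.13 and 0.16. It was also 0.07 when all probe sets of a gene were averaged. The genes were not independent, since all were read on the same 4 arrays.

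**Figure D1:**
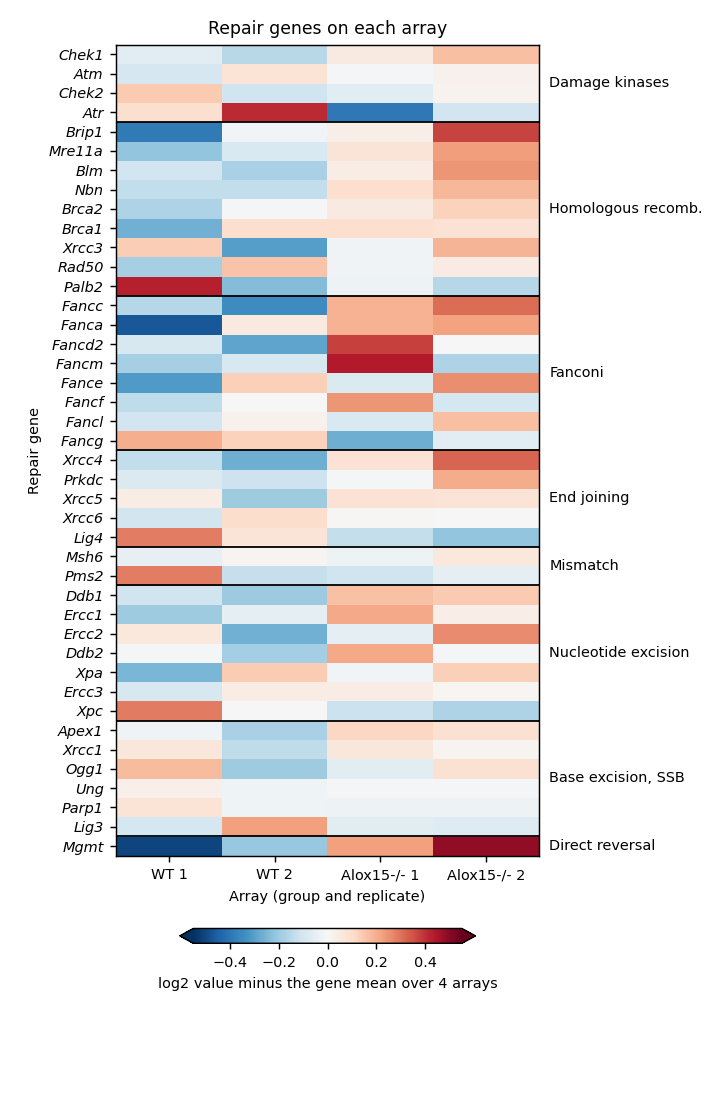
Heat map of the 42 repair genes (rows, by pathway and then by difference) on the 4 arrays (columns), with colour for the log2 value minus the gene's mean over the arrays. Red lies mainly in the columns of the knockout-labelled arrays for homologous recombination and Fanconi genes, whereas Atr, Fancg, Lig4 and Xpc show the opposite pattern.

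**Figure D2:**
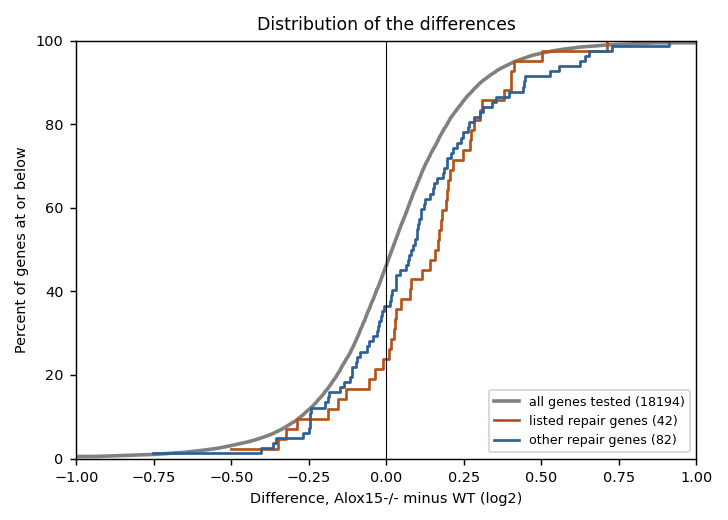
Cumulative share of genes (vertical axis, percent) at or below each log2 difference (horizontal axis) for all 18194 genes, the 42 listed repair genes and 82 other repair genes, drawn from -1 to 1. The curve of the listed genes lies to the right of that of all genes around 0, with medians of 0.16 and 0.02.

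Homologous recombination had 9 measured genes with a median difference of 0.18, 8 above 0 and 0 of 9 past the threshold. Without Alox15-/- replicate 1 that median was 0.27, and it was 0.27 with all probe sets averaged. The Mre11a, Rad50 and Nbn proteins form the complex that senses a break and starts resection of its ends. Mre11a read 9.31 and 9.44 in WT against 9.60 and 9.76 in the knockout-labelled arrays, a difference of 0.30 ± 0.14 (SE, limma adjusted p = 0.677). Nbn read 8.91 on both WT arrays and 9.14 and 9.23 on the others, a difference of 0.27 ± 0.13 (limma adjusted p = 0.678). In both genes the groups were apart, but Rad50 read 9.65, 9.99, 9.82 and 9.88 in the same order of arrays, with the WT arrays on either side of the others. Brip1, the helicase that binds Brca1, had the widest difference of these genes and read 7.13 and 7.50 in WT against 7.55 and 7.89 in the knockout-labelled arrays (0.40 ± 0.20, limma adjusted p = 0.690). The gap between the nearest arrays of the groups was thus small. Blm, the helicase that dissolves joined molecules, read 8.62 and 8.55 against 8.77 and 8.97 (0.28 ± 0.14). Brca2, a mediator of strand exchange, read 9.02 and 9.18 against 9.24 and 9.32, a difference of 0.18 ± 0.14. Xrcc3, which acts in the same pathway, overlapped between groups at 0.17 ± 0.19. Palb2, which bridges Brca1 and Brca2, was the only one of the 9 below 0: it read 8.92 in WT replicate 1 but 8.26, 8.47 and 8.34 on the remaining arrays, and its difference of -0.19 became 0.15 without WT replicate 1. Brca1 itself, at the probe set used, differed by 0.17 ± 0.17 and is described with its other probe sets below.

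Among the 8 Fanconi genes the median difference was 0.22, with 7 above 0, 1 below and 0 past the threshold. The median was 0.11 without WT replicate 1, 0.36 without Alox15-/- replicate 2 and 0.09 with the lowest-numbered probe set of each gene. Fanca, Fancc, Fance, Fancf, Fancg and Fancl belong to the core complex, a ubiquitin ligase whose catalytic subunit is Fancl, and Fancd2 is its substrate. Fancc read 7.52 and 7.32 in WT against 7.86 and 7.98 in the knockout-labelled arrays. The groups were clearly apart at 0.50 ± 0.14 (SE, n = 2 each), a 1.42-fold difference with limma adjusted p = 0.580 and unadjusted p = 0.015. Its other probe sets gave 0.46 and -0.07, so the gene's signals did not all point one way. Fanca read 8.36 and 8.88 in WT, the first in replicate 1, against 9.02 and 9.05 (0.41 ± 0.20). Without WT replicate 1 its difference was 0.15, and its other probe set gave -0.005 with overlapping groups. Fancd2 read 7.94 and 7.74 against 8.41 and 8.03 (0.38 ± 0.18). Fancm, the translocase that brings the core complex to DNA, read 8.21 and 8.31 in WT against 8.84 and 8.23 in the others, so that only Alox15-/- replicate 1 stood above WT, and its difference of 0.27 was -0.04 (-0.035) without that array. Fancg, a core complex scaffold, was the exception in direction: it read 10.88 and 10.81 in WT against 10.42 and 10.63 in the knockout-labelled arrays (-0.32 ± 0.14, limma adjusted p = 0.675), with -0.02 at its other probe set. The remaining genes, Fance, Fancf and Fancl, overlapped between groups at 0.18, 0.14 and 0.08. At the dim probe set 1446731_at, Fancf gave 0.56 with the groups apart.

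End joining had 5 genes with a median difference of 0.16, 4 above 0 and 0 past the threshold, and the median was 0.09 without Alox15-/- replicate 2. Xrcc4, the scaffold of DNA ligase IV, read 8.01 and 7.88 in WT against 8.23 and 8.47 in the knockout-labelled arrays. This 1.32-fold difference (0.40 ± 0.15) had a limma adjusted p = 0.633 and unadjusted p = 0.0416, and its other probe set gave 0.28 (0.285). Lig4, the ligase that Xrcc4 holds, lay in the opposite direction at 6.04 and 5.83 against 5.63 and 5.55 (-0.35 ± 0.14, limma adjusted p = 0.655). The groups did not overlap in either gene, and the transcripts of these partners were read on opposite sides of 0. Lig4 was read at 1 probe set only, and a dim one, since the highest bacterial control was 5.17. Of the DNA-dependent protein kinase, the catalytic subunit Prkdc read 8.84 and 8.81 against 8.91 and 9.13 (0.19 ± 0.14). Its end-binding partner Xrcc5 read 8.23 and 7.99 against 8.27 and 8.26 (0.16 ± 0.14), and the other end-binding partner, Xrcc6, read 10.04 and 10.24 against 10.15 on both, a difference of 0.01 ± 0.14.

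Promoter sequence was set beside the differences because E2F factors, which switch on genes for S phase, bind sites rich in C and G. In RefSeq windows of 250 bases before the start site (assembly GRCm38.p6), found for 35 of the 43 genes, an E2F-type match on either strand was present in 11 (31.4%), against 10.1% of 14453 genes with a window and a probe set. Such a match was defined as the letters TTCCCGC, as the variant TTGGCGC, or as the further variant TTCGCGC. On either strand, the letters CCAAT occurred in 57.1% (20 of 35) against 35.7%, and TTTGAA in 0 of 35 against 11.9%. The median difference was 0.18 for the 11 genes with an E2F-type match, 8 above 0 and 3 below, and 0.14 for the 24 without, 18 above 0 and 6 below. A match is a description of letters and not a binding site. The 4 windows below were chosen after the values were seen: in the Fanconi pathway and in end joining each pair of genes shares an E2F-type match, in capitals, while their differences lay on opposite sides of 0, Fancm (0.27) and Fancg (-0.32), Xrcc4 (0.40) and Lig4 (-0.35). These opposite signs are weakly held: the Fancm groups overlapped, and its difference was -0.035 without Alox15-/- replicate 1. Fancg gave -0.02 at its other probe set, and Lig4 was dim. Each runs 5' to 3' towards the gene, and the windows are chr12:65075353-65075602 (plus strand) for Fancm, chr4:43010302-43010551 (minus strand) for Fancg, chr13:90089609-90089858 (minus strand) for Xrcc4 and chr8:9977681-9977930 (minus strand) for Lig4.
Fancm promoter window: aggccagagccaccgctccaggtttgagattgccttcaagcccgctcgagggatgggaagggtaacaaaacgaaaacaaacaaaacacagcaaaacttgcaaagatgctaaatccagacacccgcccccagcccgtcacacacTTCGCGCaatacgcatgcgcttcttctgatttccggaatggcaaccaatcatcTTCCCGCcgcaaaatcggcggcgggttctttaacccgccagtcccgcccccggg
Fancg promoter window: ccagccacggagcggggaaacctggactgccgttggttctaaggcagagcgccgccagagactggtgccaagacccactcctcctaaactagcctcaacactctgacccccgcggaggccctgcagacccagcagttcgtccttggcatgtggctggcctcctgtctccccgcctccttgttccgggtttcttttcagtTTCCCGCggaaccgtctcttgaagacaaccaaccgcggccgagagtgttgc
Xrcc4 promoter window: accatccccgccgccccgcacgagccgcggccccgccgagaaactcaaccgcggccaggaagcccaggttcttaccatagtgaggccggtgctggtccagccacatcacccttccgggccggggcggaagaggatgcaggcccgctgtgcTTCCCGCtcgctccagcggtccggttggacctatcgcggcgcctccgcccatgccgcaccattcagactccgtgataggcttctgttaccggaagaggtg
Lig4 promoter window: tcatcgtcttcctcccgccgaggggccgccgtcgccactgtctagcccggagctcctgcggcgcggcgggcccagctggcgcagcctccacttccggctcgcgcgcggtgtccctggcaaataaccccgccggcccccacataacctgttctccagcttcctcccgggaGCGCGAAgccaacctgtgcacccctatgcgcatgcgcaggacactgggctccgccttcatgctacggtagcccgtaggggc
The matches begin at position -107 and -54 from the start in Fancm, -51 in Fancg, -100 in Xrcc4 and -81 in Lig4, where the letters lie on the opposite strand. No window was matched for Rad50, Nbn, Xrcc2, Fancd2, Prkdc, Ercc3, Xpc and Ddb2. The deposited values name no genome build, and the windows were matched to the probe sets by gene symbol alone.

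The damage kinases, 4 genes, had a median difference of -0.01, with 2 above 0, 2 below and 0 past the threshold, and the median lay between -0.04 and 0.02 without any 1 array. Atr, the kinase that answers stalled replication forks, read 8.58 and 8.90 in WT against 8.10 and 8.39 in the knockout-labelled arrays (-0.50 ± 0.18, limma adjusted p = 0.630 and unadjusted p = 0.0375). Of its 2 other probe sets, 1 had the same sign at -0.09 with overlapping groups, and the other gave 0.54 but read below the bacterial control on every array. Chek1, the kinase that Atr activates, read 9.26 and 9.17 in WT against 9.37 and 9.49 in the others (0.21 ± 0.13). All 5 probe sets of Chek1 were above 0, from 0.21 to 0.57. Atm, which answers double-strand breaks, read 10.52 and 10.69 against 10.60 and 10.64 (0.02 ± 0.14), and its target Chek2 differed by -0.04 ± 0.15, both with overlapping groups. At its other probe set Atm was at -0.205, with the groups apart.

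Nucleotide excision repair, with 7 genes, had a median difference of 0.20, 6 above 0 and 0 past the threshold. That median was 0.06 without Alox15-/- replicate 2, 0.11 without WT replicate 2 and 0.05 with all probe sets averaged. Ddb1 and Ddb2 form the ultraviolet damage sensor. Ddb1 read 10.14 and 10.04 in WT against 10.41 and 10.39 in the knockout-labelled arrays (0.31 ± 0.13, limma adjusted p = 0.658), and the arrays of each group lay close together. Ddb2 read 10.51 and 10.33 against 10.73 and 10.51 (0.20 ± 0.15), which barely separated the groups. Ercc1, part of the nuclease that cuts 5' of the lesion, read 8.91 and 9.06 against 9.32 and 9.15 (0.25 ± 0.14), while its other probe sets gave 0.11, -0.04 and, from a set below the bacterial control on every array, -0.48. Xpc, which recognises the distorted helix, was lower in the knockout-labelled arrays, at 10.32 and 10.03 in WT against 9.91 and 9.86 in the others (-0.29 ± 0.15, limma adjusted p = 0.704). The helicase genes Ercc2 and Ercc3 of TFIIH, at 0.21 and 0.05, and the damage verifier Xpa, at 0.11, overlapped between groups.

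Base excision and single-strand break repair had 6 genes with a median difference of 0.01, 3 above 0, 3 below and 0 past the threshold, and the median lay between -0.03 and 0.10 without any 1 array. Ung, the uracil glycosylase, read 11.96 and 11.92 in WT and 11.93 on both other arrays (-0.01 ± 0.13). Parp1, the sensor of strand breaks, read 10.89 and 10.79 in WT and 10.79 (10.785) on both other arrays, a difference of -0.06. Apex1, the endonuclease at abasic sites, stood apart from these with 10.95 and 10.79 against 11.08 and 11.05 (0.20 ± 0.13, limma adjusted p = 0.760), and all 3 of its probe sets gave 0.20 to 0.24. Lig3 and its scaffold Xrcc1 differed by -0.13 and 0.08, and the 8-oxoguanine glycosylase Ogg1 by 0.03 (0.025), each with overlapping groups. The other probe set of Ogg1 gave 0.24 with the groups apart. Mismatch repair was represented by Msh6, which finds mismatches, and by Pms2, which nicks the strand. Msh6 read 11.39 and 11.45 against 11.41 and 11.49 (0.03 ± 0.13). Pms2 read 8.90 and 8.49 against 8.51 and 8.57 (-0.16 ± 0.18, written as -0.155 before rounding). Neither gene separated the groups at the probe set used, but the other Pms2 probe sets did, in opposite directions at -0.19 and 0.18.

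Mgmt, which removes alkyl groups from guanine in a single step and is the only direct reversal gene listed, had the largest difference of the 42. It read 7.10 and 7.40 in WT against 7.83 and 8.09 in the knockout-labelled arrays. All arrays of one group were above those of the other, by 0.71 ± 0.17 (SE, n = 2 each), a 1.64-fold difference with limma adjusted p = 0.571 and unadjusted p = 0.00806. It has 1 probe set, and its difference ran from 0.57 (0.565) to 0.86 when any 1 array was left out.

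**Figure D3:**
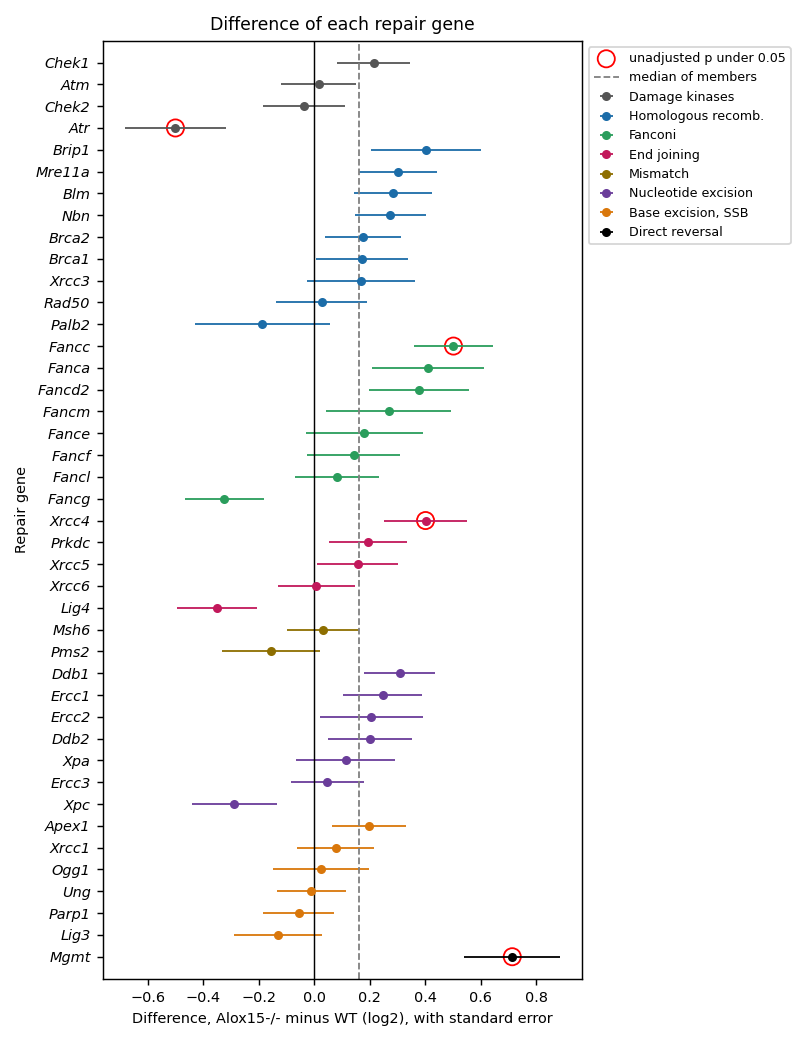
Log2 difference of each repair gene, knockout-labelled arrays minus WT (points), with the moderated standard error (bars), coloured by pathway, and red rings for the 4 genes with an unadjusted p under 0.05. Mgmt at 0.71 and Atr at -0.50 are the outermost points, and the dashed line is the median of 0.16.

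Homologous recombination and Fanconi genes together had a median of 0.18, with 15 of 17 above 0 and 9 of 17 (52.9%) not overlapping. The 13 excision repair genes had 0.08, with 9 above 0 and 6 (46.2%) not overlapping, against 38.5% of all genes without overlap. The difference between pathways was not tested. The mean of the homologous recombination genes, relative to the 4-array mean of each gene, was -0.10 and -0.08 in WT and 0.03 and 0.15 in the knockout-labelled arrays. For Fanconi genes these means were -0.16 and -0.05 against 0.13 and 0.08. In both pathways the WT means thus lay below the others, as in nucleotide excision repair with -0.04 and -0.07 against 0.06 on both. In end joining they did so barely, at 0.0009 and -0.08 against 0.0049 and 0.08. Base excision repair means overlapped, at 0.04 and -0.05 against 0.00 (0.0048) and 0.01.

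Proliferation genes were also read mostly higher in the knockout-labelled arrays. Of 32 replication and S phase genes that are not among the 42, 27 were above 0 with a median of 0.19 (0.1875), and their summed linear signal was 49806 to 52174 in WT and 54551 to 56831 in the knockout-labelled arrays. Of 20 genes of G2 phase and mitosis, 19 were above 0 with a median of 0.31, and the sums overlapped at 21008 to 24470 and 24373 to 25172. The exception was the bright proliferation marker Mki67, at -0.63. The shares above 0 were 84.4% for replication and 95% for mitosis, against 53.8% of all genes. In both lists 0 genes lay below the bacterial control on all arrays and 0 passed the threshold. Of 10 mature neutrophil markers 9 were measured, and 9 of 9 were above 0 with a median of 0.83, and the sums were 684 to 1477 in WT and 2143 to 2783 in the others, with Mmp8 below the bacterial control on all arrays. The gap between the ends of the Gapdh transcript, a sign of RNA integrity, was 2.37 and 2.39 in WT against 2.14 and 2.17 in the knockout-labelled arrays, but the same gap for Actb overlapped, with a difference of 0.0056. Of 6 erythroblast markers 2 were above 0 and 4 below, with a median of -0.04. Their sums, 8197 to 8371 in WT against 7212 to 7275, came almost wholly from Car2, which read 12.74 to 12.98, while Klf1 lay the other way at 0.87 and Hba-a1 was below the control on all arrays. Of 8 B cell markers 5 were above 0 and 3 below, with a median of 0.09. Their sums of 995 to 1193 against 1285 to 2263 were carried by Vpreb1, with Ebf1 at -0.42 and Ms4a1 below the control. Of 7 macrophage and monocyte markers 4 were above 0 with a median of 0.34, and the sums were 1342 to 1396 against 1577 to 1932, with Adgre1 below the control. Of 8 endothelial and stromal markers 6 were above 0 with a median of 0.11, and the sums were 788 to 815 against 836 to 1055, with Sparc at 1.32 and with Cdh5 and Col1a2 below the control. For T and NK cells 5 of 8 were above 0 with a median of 0.10, and the sums overlapped. The part of these cell types, of the gate genes, of proliferation and of RNA integrity in the repair gene differences was not tested. Brca1, Brip1, Rad50, Fancl and Lig3 lie on chromosome 11, as Alox15 does, at 202 to 534 measured genes from it. They differed by -0.13 to 0.40 at the probe sets used, but Brca1 gave 1.59, 0.71 and -0.41 at its others. Other genes named here that lie on chromosome 11 include Hlf (-0.77), Meis1 (-0.51), Rad51d (-0.75), Ebf1 (-0.42), Tk1 (0.58) and Sparc (1.32). The part of this shared chromosome in the differences was not tested.

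**Figure D4:**
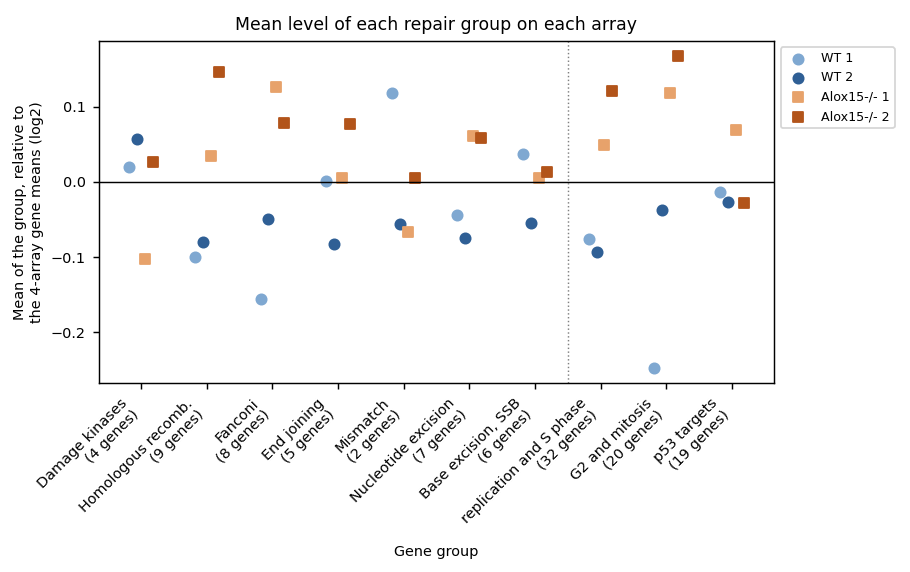
Mean of each gene group on each array (points), relative to each gene's mean over the 4 arrays, on a log2 scale. Right of the dotted line are replication, mitosis and p53 target genes, which hold none of the 42. WT circles lie below the squares of the knockout-labelled arrays for homologous recombination, Fanconi, nucleotide excision, replication and mitosis genes. For end joining genes they do so by very little.

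The 42 genes had 89 probe sets, of which 9 (10.1%) had an unadjusted p under 0.05 in a limma fit over all 34958 named probe sets, against 7.70% of all of them. Of these 9, 8 were higher in the knockout-labelled arrays, against 3.88% of all, and 1 was lower, against 3.82%. In this fit 0 of the 89 passed the threshold, against 0.00572% of all. The 47 probe sets that were not used for the comparison by gene were above 0 in 28 cases (59.6%, against 53.2% of all). Of 26 genes with several probe sets, 16 had signals on both sides of 0.

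Brca1, the ubiquitin ligase that steers breaks into homologous recombination, showed the widest such spread. At the probe set used it read 9.49 in WT replicate 1 and 9.84, 9.84 and 9.83 on the remaining arrays, so that without WT replicate 1 its difference was -0.0063. At the probe set 1424630_a_at, whose suffix marks a set that matches several transcripts of 1 gene, it read 7.37 and 7.45 in WT against 9.32 and 8.67 in the knockout-labelled arrays. This difference of 1.59 (1.585 ± 0.24) was the largest of the 89, with limma adjusted p = 0.478 and unadjusted p = 0.000985. The groups were also apart at 1451417_at, with 6.66 and 6.34 against 7.17 and 7.24 (0.71 ± 0.17, limma adjusted p = 0.569). They lay the other way at 1427698_at, which read 5.31 and 5.64 against 4.90 and 5.23, near the bacterial control. The 4 probe sets of Brca1 therefore gave 0.17, 1.59, 0.71 and -0.41. The sources used here do not give the transcripts that each one reads. Fancd2 also differed by probe set, at 0.38, -0.16, 0.70 and 0.09, with the 0.70 from a dim set that read 5.01 and 5.19 in WT against 5.81 and 5.79 in the others. For Mre11a both probe sets lay on one side, with 0.48 ± 0.16 at the other set.

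**Figure D5:**
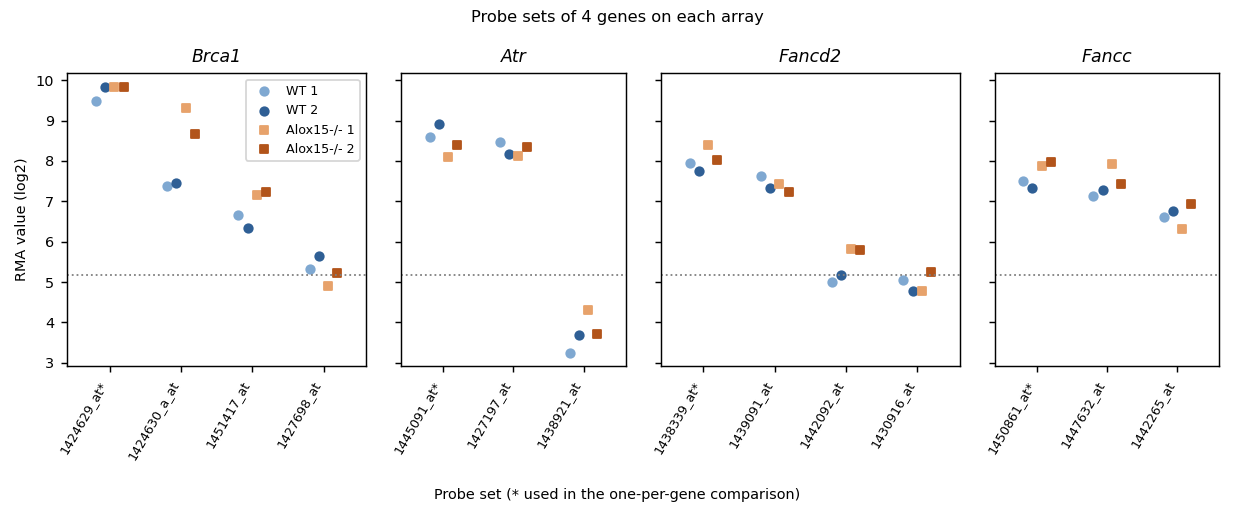
Log2 RMA values on each array (circles WT, squares the knockout-labelled arrays) for each probe set of Brca1, Atr, Fancd2 and Fancc, with an asterisk on the set used by gene. The dotted line is 5.17, the highest bacterial control on any array. The groups are far apart at 1424630_a_at of Brca1 and overlap at the Brca1 set used.

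Of 98 repair genes outside the list 82 were measured, with a median difference of 0.08 against 0.16 for the 42, 52 above 0 and 30 below, and 0 past the threshold. That order turned with other probe sets, to 0.097 against 0.075 with all sets averaged and 0.082 against 0.079 with the lowest-numbered set. In limma 10 of the 82 had an unadjusted p under 0.05 (7.77% of all genes did), 7 higher and 3 lower. The groups did not overlap for 31 (37.8%), against 38.5% of all genes. Rad17, which loads the checkpoint clamp, read 7.56 and 7.60 in WT against 8.42 and 8.19 in the knockout-labelled arrays (0.73 ± 0.14, limma adjusted p = 0.487). Bard1, the obligate partner of Brca1, read 7.45 and 7.78 against 8.78 and 8.28 (0.91 ± 0.22, limma adjusted p = 0.571). In the same pathway Rad51ap1, which aids strand pairing, differed by 0.56 and by 0.24 to 0.57 at its other probe sets. The resection nuclease Exo1 differed by 0.66 (0.655), with 0.75 and -0.21 at its others, and the junction resolvase Gen1 by 0.44, with 0.56 at its other. Poll, an end joining polymerase, differed by 0.64, and Faap24, the partner of Fancm, by 0.63. On the lower side were the homologous recombination gene Rad51d at -0.75, the gap-filling polymerase gene Polb at -0.40 and Wdr48, a cofactor of the Fancd2 deubiquitinase, at -0.36. The other probe sets of these last lay on both sides of 0, at 0.29, -0.54 and 0.46 for Rad51d, -0.09, -0.14 and 0.29 for Polb, and -0.06, 0.59 and 0.19 for Wdr48.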

How the data were processed

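The deposited table holds log2 values for 45101 probe sets on 4 arrays. Per the submitters' processing notes the authors made them with Affymetrix Expression Console 1.1 and RMA. Per the labels' protocols, a whole-transcript sense labelling kit was used, whereas the probe set names are those of an array design read with antisense targets. How these fit together is not stated, which limits what a signal level means. The sources used here name no genome build or filter. GEO's platform annotation gave 34958 probe sets 1 gene symbol, 932 several and 9211 none. Each of 18194 genes was read at its brightest single-symbol probe set (mean of the 4 arrays), and dim genes were kept.

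The groups were compared by a two-sided moderated test (limma 3.58.1, lmFit then eBayes, under R 4.3.3) without a block over all genes, with Benjamini-Hochberg adjustment. The number of arrays limits the precision. Members, pathways and lists were chosen with earlier results of these data known. All members may be named. Other repair genes were named at an unadjusted p under 0.05 without overlap of the groups, at most 12, and lists beside them by their 2 largest absolute moderated t. The code was checked on simulated data. Alternatives covered normalization, dim genes, variance moderation, array weights, probe set choice, a replicate block, each array left out and the threshold. Figures used matplotlib 3.10.9.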

Additional observations from a re-analysis of the deposited data

How the results depend on the processing

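The number of genes past the adjusted threshold cannot tell differences this small from none. Among the 42 it was 0 in limma under all 13 alternatives that kept the 4 arrays, including an adjusted p under 0.10. Over all genes it was 1 in the main analysis, 22 with a prior variance that depends on the mean level (Mki67 among them, limma adjusted p = 0.0114, and the cause was not tested), 2 with the lowest-numbered probe set and 0 without any 1 array, where a lone array is assumed to vary like the other group. Alox15 kept a difference of 6.08 to 6.36 without any 1 array, with limma adjusted p from 0.172 to 0.328, and of 6.22 with adjusted p = 0.703 without variance moderation. With all probe sets averaged the median difference of the 42 was 0.075, that of homologous recombination genes 0.27 and that of nucleotide excision repair genes 0.0475. With the lowest-numbered probe set the median of the 42 was 0.079, of damage kinases -0.066, of Fanconi genes 0.086 and of nucleotide excision repair genes 0.0475, and 2 members in place of 4 had an unadjusted p under 0.05. These alternatives read other probe sets. For the settings without 1 array, the shares of all genes above 0, at an unadjusted p under 0.05 and without overlap were not computed. The counts of members given next for those settings therefore have no background. They do not show whether the members differed from other genes. Leaving out 1 array gave medians of 0.077 to 0.16 for the 42, 0.05 to 0.11 for the other repair genes, 0.15 to 0.27 for homologous recombination and Fanconi genes together, 0.18 to 0.27 and 0.11 to 0.36 for each, -0.04 to 0.02 for damage kinases, 0.0875 to 0.21 for end joining, -0.15 to 0.03 for mismatch repair, 0.0625 to 0.17 for nucleotide excision repair and -0.0275 to 0.10 for base excision repair. It left 28 to 31 members above 0, 3 to 5 at an unadjusted p under 0.05 and 24 to 39 without overlap, a number that grows because fewer arrays can overlap.

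Of the 42 genes 19 kept their sign in each of up to 16 settings in which they were tested, 15 above 0 and 4 below (Atr, Fancg, Lig4 and Xpc), and 23 did not. Settings that changed only the variance moderation, the dim-gene filter or the replicate block leave a gene's difference as it was. The sign could not turn in those settings, so they say nothing about its stability. Nor can the sign turn without 1 array where the groups do not overlap, or with other probe sets where a gene has 1 probe set. All 19 genes had groups that did not overlap, so their kept sign largely repeats that separation. Without the lowest 50 percent of genes 40 members were tested, and Lig4 was not among them. With all probe sets averaged the sign turned for Atm (-0.094), Rad50 (-0.054), Xrcc6 (-0.16), Ercc1 (-0.040), Parp1 (0.011) and Wdr48 (0.09), and with the lowest-numbered probe set for Atm (-0.21), Fancc (-0.071), Fance (-0.16), Ercc2 (-0.12), Parp1 (0.01) and Rad51d (0.29). Without 1 array the sign turned for these genes, with ranges of -0.066 to 0.10 for Atm, -0.16 to 0.089 for Chek2, -0.0063 to 0.35 for Brca1, -0.52 to 0.15 for Palb2, -0.14 to 0.20 for Rad50, -0.054 to 0.39 for Xrcc3, -0.0425 to 0.40 for Fance, -0.0275 to 0.31 for Fancf, -0.044 to 0.21 for Fancl, -0.035 to 0.57 for Fancm, -0.091 to 0.11 for Xrcc6, -0.011 to 0.074 for Msh6, -0.36 to 0.0475 for Pms2, -0.0175 to 0.11 for Ercc3, -0.081 to 0.31 for Xpa, -0.0225 to 0.18 for Xrcc1, -0.29 to 0.0325 for Lig3, -0.0325 to 0.0125 for Ung, -0.16 to 0.21 for Ogg1 and -0.24 to 0.55 for Aldh1a1. Same-numbered arrays did not deviate together (r = -0.02 across genes), and with the replicate number as a block the median of the 42 was 0.16, with 0 called and 1 gene over all. Signal over background limits the dim probe sets: all 42 genes were above the highest bacterial control on every array at the set used, and 2 of the 89 probe sets were below it on every array.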

Other observations

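Genes that act around the repair pathways were also compared. Of 19 measured p53 targets, which respond to unrepaired breaks, 11 were above 0 (57.9%, against 53.8% of all genes) and 8 below. Their median difference was 0.03. In limma 0 passed the threshold and 1 had an unadjusted p under 0.05, against 7.77% of all genes. That one was Cdkn1a, the p21 inhibitor of cyclin-dependent kinases, which read 8.34 and 7.82 in WT against 9.27 and 8.97 in the knockout-labelled arrays (1.04 ± 0.22, limma adjusted p = 0.503), with 0.33 at its other probe set. Btg2, an antiproliferative p53 target, read 7.87 and 8.23 against 7.71 and 7.51 (-0.43 ± 0.18), with 0.26 at its other probe set. Pmaip1, Plk2 and Fas were below the bacterial control on every array.

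Aldehydes are a source of the crosslinks that the Fanconi pathway removes. Of 6 measured aldehyde removal genes, 3 were above 0 (50%, against 53.8% of all genes) and 3 below, with a median of 0.02. In limma 0 passed the threshold and 1 had an unadjusted p under 0.05, against 7.77% of all genes. Aldh7a1 differed by 0.45 ± 0.16, with 0.14 and -0.04 at its other probe sets, and Aldh1a1 by 0.16 ± 0.29 with overlapping groups. Among proliferation genes, Tk1, which salvages thymidine, differed by 0.58 and Mcm2, of the replicative helicase, by 0.52, with 0.31 at its other probe set. Their list of 32 replication and S phase genes had 5 below 0, down to -0.65 (-0.6475). Cenpe, a kinetochore motor, differed by 0.51, with 0.33 at its other probe set. The proliferation marker Mki67 differed by -0.63, opposite to the other 19 measured genes of its list.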
